A study of Mus musculus with 24 samples.

Results

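Integrin transcripts were examined in single NKT (NK1.1+CD3e+) cells of the mouse liver. The 9 genes were taken by symbol from the 24447 genes of the deposited count matrix. They were Itga1, Itga2, Itga4, Itgae, Itgal and Itgax, which encode α chains, and Itgb1, Itgb2 and Itgb7, which encode β chains. All 1735 cells entered, 623 from C57BL/6 wild-type (WT) mice, 725 from Jα18-deficient mice and 387 from CD1d-deficient mice. The labels give every sample the strain C57BL/6 and the tissue liver, and the animals were young adults of unstated sex and number. In Jα18-deficient mice the TCR segment of type I NKT cells is missing. In CD1d-deficient mice the missing molecule is the one that shows lipid antigens to every CD1d-dependent NKT cell. The labels name 8 libraries per genotype, but a cell carries only its genotype and a number, so each genotype was 1 pool and no genotype had a replicate. Cells were also divided by whether they held a UMI (a molecule counted once by its tag) of Cd8a, Cd4 or S1pr1. These encode a coreceptor chain of MHC class I-restricted T cells, the coreceptor of MHC class II-restricted T cells and the receptor by which lymphocytes leave tissues along sphingosine-1-phosphate.

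Integrins are adhesion receptors made of 1 α and 1 β chain, and both chains are needed for the receptor to reach the surface. In lymphocytes they switch from a bent to an extended, ligand-binding form when talin and kindlin bind the tail of the β chain after signals from the antigen or chemokine receptor. In the liver, αLβ2 (LFA-1) holds lymphocytes to ICAM-1 in the sinusoids, the collagen receptor α1β1 (CD49a) marks tissue-resident lymphocytes, and α4 integrins act in traffic from blood into tissue.

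On the mouse assembly mm9, Itga1 lay on chromosome 13 from 115748287 to 115892172 and Itga2 beside it from 115626124 to 115722249, both on the minus strand, with 26037 bases between them. Itgal (134439774 to 134478651) and Itgax (135273061 to 135294171) lay on the plus strand of chromosome 7. Itga4 spanned 79095583 to 79173280 of chromosome 2, plus strand, and an exon of it overlapped one of Cerkl on the opposite strand, so its counts are uncertain where reads were assigned without strand. Itgae spanned 72904085 to 72960948 of chromosome 11, Itgb1 131209554 to 131257100 of chromosome 8 and Itgb2 76992997 to 77028453 of chromosome 10, all on the plus strand. Itgb7 spanned 102046426 to 102062366 of chromosome 15 on the minus strand. All 9 are protein-coding, and counts were summed over exons of the whole gene.

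The 250 bases before the start of Itga1, Itga4 and Itgax are printed from RefSeq (GRCm38.p6, 5′ to 3′ on the strand of the gene), because these 3 genes had the widest ranges of levels between the pools. Capitals mark matches, on either strand, to a RUNX motif (TGTGGT), a T-box motif (AGGTGT) or an ETS motif (AGGAAG), factor families that act in T and NK cells.
Itga1: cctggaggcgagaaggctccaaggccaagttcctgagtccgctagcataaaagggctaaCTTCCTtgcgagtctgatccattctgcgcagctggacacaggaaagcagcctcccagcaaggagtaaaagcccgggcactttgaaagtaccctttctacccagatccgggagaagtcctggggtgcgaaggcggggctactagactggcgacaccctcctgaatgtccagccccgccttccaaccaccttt
Itga4: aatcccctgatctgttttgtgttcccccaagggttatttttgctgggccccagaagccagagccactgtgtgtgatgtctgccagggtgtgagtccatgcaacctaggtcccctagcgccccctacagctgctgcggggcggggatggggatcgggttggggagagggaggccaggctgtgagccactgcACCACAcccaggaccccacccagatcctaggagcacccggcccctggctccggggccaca
Itgax: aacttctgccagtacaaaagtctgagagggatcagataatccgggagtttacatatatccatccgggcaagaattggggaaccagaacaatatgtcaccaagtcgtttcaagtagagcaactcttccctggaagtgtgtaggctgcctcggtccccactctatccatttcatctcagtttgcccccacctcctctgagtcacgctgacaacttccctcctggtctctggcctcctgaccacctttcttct
The capitals in the Itga1 window were an ETS match and those in the Itga4 window a RUNX match, and the Itgax window held none of the 3 motifs. Of 32851 promoter windows of this length, 29.5% held the ETS motif, 14.0% the RUNX motif and 11.8% the T-box motif, so these matches are descriptions of the sequence.

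Depth differed between the pools. The median cell had 40467 UMIs in WT, 46670 in Jα18-deficient and 13508 in CD1d-deficient mice. For shares of cells, each cell was therefore thinned to 10000 UMIs, which kept 523, 632 and 227 cells and left out 100, 93 and 160. Cd1d1 had 854 UMIs in WT, 934 in Jα18-deficient and 0 in CD1d-deficient cells, as the labels state, and the Jα18 segment is not among the genes counted. The 5 markers of the sort and of T cells (Cd3e, Cd3d, Cd3g, Klrb1c and Ptprc) summed to between 4899 and 5607 UMIs per 1000000 of the pool (CPM) in the 3 pools. Lyz2, a lysozyme of myeloid cells, stood apart in the CD1d-deficient pool at 588 CPM against 77.3 in WT and 14.7 in Jα18-deficient cells. Cells with a UMI of Lyz2 or of the MHC class II gene H2-Ab1 made up 86.3% of the cells in the CD1d-deficient pool, 40.1% in WT and 38.8% in the Jα18-deficient pool, and values without them are given beside the genes concerned. Intervals are 95% intervals for counting error only and do not cover the spread between mice or libraries.

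The chains of the leukocyte integrin LFA-1 had the narrowest ranges of log2 ratios over the 3 pairs of whole pools among the 9 genes. Itgb2, its β chain and that of all CD11 integrins, had 681 CPM in WT (672 to 689), 683 in Jα18-deficient (677 to 690) and 615 in CD1d-deficient cells (603 to 628). Itgal, its α chain, had 212 (207 to 217), 197 (193 to 201) and 195 (188 to 203). The log2 ratios of both genes lay between -0.15 and 0.01 in all 3 comparisons of pools. Between CD1d-deficient and WT cells taken alone, Itgb1 had a smaller ratio, at 0.03. The sign for Itgb2 between Jα18-deficient and WT cells turned from 0.01 to -0.11 with TMM scaling. In cells without Lyz2 and H2-Ab1 the Itgb2 ratio of CD1d-deficient to WT was 0.53 in place of -0.15, so no direction is read for it, and that of Itgal was -0.18. At 10000 UMIs per cell, Itgb2 was detected in 91.6%, 91.0% and 91.2% of WT, Jα18-deficient and CD1d-deficient cells. Itgal was detected in 56.2%, 54.3% and 44.5%, and the CD1d-deficient interval (37.9 to 51.2) lay below that of WT (51.8 to 60.5).

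Itgb1 and Itgb7 encode the β chains that α4 can pair with, and Itgb1 is also the partner of α1 and α2. Itgb1 had 207 CPM in WT (202 to 211), 150 in Jα18-deficient (147 to 153) and 212 in CD1d-deficient cells (204 to 219). Itgb7 had 234 (229 to 239), 401 (396 to 406) and 359 (349 to 369). The lowest pool was therefore Jα18-deficient for Itgb1 and WT for Itgb7, and neither gene reached 2-fold in any pair of whole pools. As log2 ratios, Jα18-deficient against WT gave -0.46 for Itgb1 and 0.78 for Itgb7, and CD1d-deficient against WT gave 0.03 and 0.62. The value of 0.03 became -0.03 with TMM scaling and gives no direction. In cells without Lyz2 and H2-Ab1, Itgb7 passed 2-fold between CD1d-deficient and WT, at 1.04, and Itgb1 had 0.44. In shares of thinned cells, Itgb1 was found in 51.2%, 42.2% and 44.9% and Itgb7 in 63.1%, 74.1% and 70.0% of WT, Jα18-deficient and CD1d-deficient cells.

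Among the collagen-receptor α chains, Itga1 was highest in CD1d-deficient cells, and the order for Itga2 depended on which cells were counted. Itga1, the α1 chain that binds type IV collagen and marks resident lymphocytes of the liver, had 38.3 CPM in WT (36.3 to 40.5), 64.4 in Jα18-deficient (62.4 to 66.5) and 168 in CD1d-deficient cells (161 to 175). The 3 intervals did not overlap. CD1d-deficient cells exceeded WT by 2.13 on the log2 scale (4.38-fold, 2.03 to 2.23) and Jα18-deficient cells by 1.38 (2.61-fold, 1.31 to 1.46), and Jα18-deficient cells exceeded WT by 0.75. At 10000 UMIs per cell, the share of cells with Itga1 was 14.9% in WT (11.97 to 18.3), 15.2% in Jα18-deficient (12.5 to 18.2) and 34.8% in CD1d-deficient mice (28.6 to 41.4). WT and Jα18-deficient cells thus had overlapping shares of detected cells but separate summed levels. Without thinning the shares were 19.6%, 29.8% and 42.6%. In cells without Lyz2 and H2-Ab1, the log2 ratio of CD1d-deficient to WT was 1.67 and that to Jα18-deficient 0.67, under 2-fold.

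Itga2, the α2 chain (CD49b) that binds type I collagen, had 11.6 CPM in WT (10.4 to 12.8), 21.4 in Jα18-deficient (20.3 to 22.6) and 40.4 in CD1d-deficient cells (37.2 to 43.9). Few cells carried it, 4.21%, 4.11% and 9.25% of thinned cells. In the CD1d-deficient pool 1 cell held 239 of its 588 UMIs, or 40.6%. The log2 ratio of CD1d-deficient to WT was 1.81 with all cells, 1.24 without the cell holding most Itga2 UMIs in each pool, and 0.28 in cells without Lyz2 and H2-Ab1. It was the only one of the 4 genes past 2-fold between these pools to come under 2-fold in those cells. Against Jα18-deficient cells the ratio turned from 0.92 to -0.13 there, so no direction is read between the deficient pools.

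**Figure D1:**
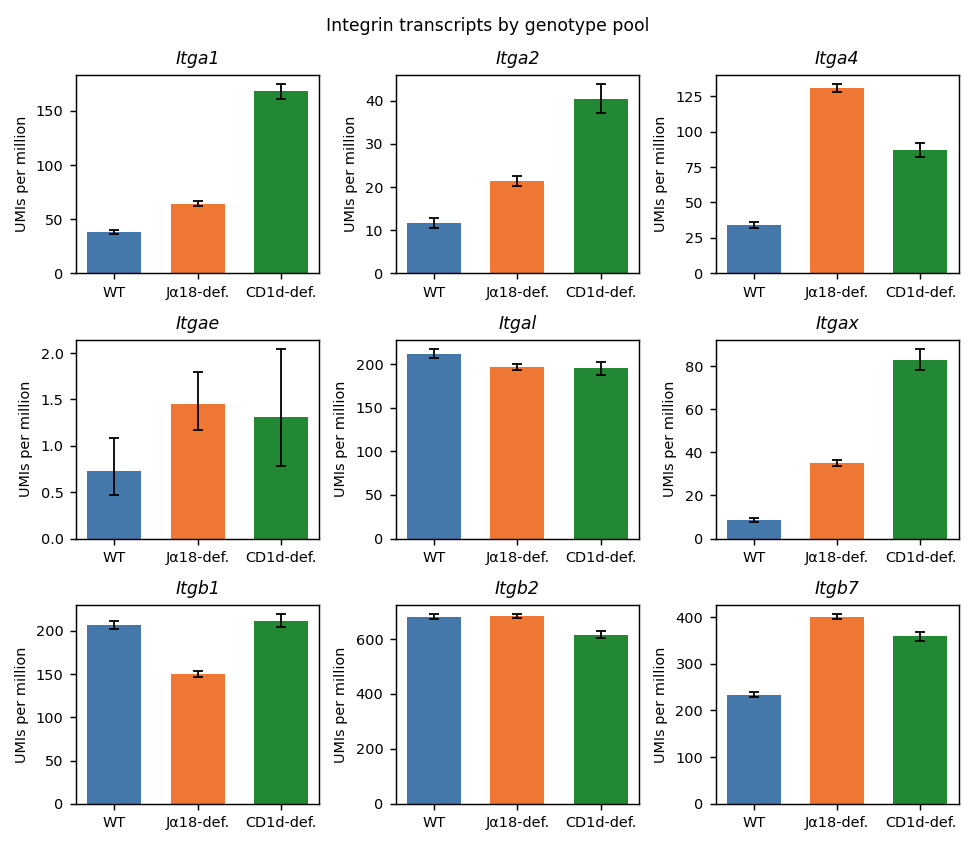
Level of each integrin transcript in the 3 genotype pools (bars from 0, CPM of the summed cells, 1 pool each; error bars, exact Poisson 95% intervals for counting error only; each panel has its own scale). The Itgax bars stand at 8.42, 35.0 and 83.0 from WT to CD1d-deficient cells, while those of Itgal and Itgb2 are nearly level.

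Itga4, the α4 chain (CD49d) of the receptors for VCAM-1, fibronectin and MAdCAM-1, was lowest in WT cells. It had 34.1 CPM in WT (32.2 to 36.1), 131 in Jα18-deficient (128 to 134) and 87.0 in CD1d-deficient cells (82.3 to 92.0). Both deficient pools were past 2-fold over WT, by 1.94 (3.83-fold, 1.85 to 2.03) and 1.35 (2.55-fold, 1.24 to 1.47) on the log2 scale. Between the deficient pools the log2 ratio of CD1d-deficient to Jα18-deficient was -0.59 in sums, 0.16 in sums of thinned cells and 0.39 as a mean over cells of their own CPM, so its order there depends on how deep cells are weighted. In cells without Lyz2 and H2-Ab1 the 3 ratios were 1.70 for Jα18-deficient to WT, 2.50 for CD1d-deficient to WT and 0.79 for CD1d-deficient to Jα18-deficient. Shares of thinned cells were 11.9% in WT (9.21 to 14.9), 21.7% in Jα18-deficient (18.5 to 25.1) and 24.2% in CD1d-deficient cells (18.8 to 30.3). The WT interval lay below both others, which overlapped each other.

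Itgax showed the widest span of the 9 genes. It encodes αX (CD11c), which pairs with β2 and is known from dendritic cells, but is also carried by NK cells and activated CD8 T cells. Its level was 8.42 CPM in WT (7.47 to 9.45), 35.0 in Jα18-deficient (33.5 to 36.5) and 83.0 in CD1d-deficient cells (78.4 to 87.9). On the log2 scale Jα18-deficient exceeded WT by 2.05 (4.16-fold, 1.88 to 2.24), CD1d-deficient exceeded WT by 3.30 (9.87-fold, 3.12 to 3.49) and CD1d-deficient exceeded Jα18-deficient by 1.25 (2.37-fold, 1.14 to 1.35). The last value was 0.91, under 2-fold, without the cell with most Itgax UMIs in each pool, which held 25.9% of them in CD1d-deficient cells. The share of thinned cells with Itgax followed the same order, 2.68% in WT (1.47 to 4.45), 9.49% in Jα18-deficient (7.32 to 12.1) and 29.1% in CD1d-deficient cells (23.3 to 35.4).

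Myeloid and dendritic markers were set beside Itgax, since these cells carry CD11c. The 8 myeloid markers summed to 568, 1395 and 3405 CPM in WT, Jα18-deficient and CD1d-deficient cells, in the order of Itgax. Most of this was Fcer1g (481, 1371 and 2790), an adaptor gene that NK cells also use. Without Fcer1g the other 7 summed to 87.2, 23.8 and 615, so the Jα18-deficient pool had the least, while its Itgax was above that of WT. Of the 6 dendritic markers, which summed to 39.3, 58.8 and 141, Flt3 was at 0 in all pools and Zbtb46 at 0 in WT and Jα18-deficient cells. H2-Ab1, the highest of them in CD1d-deficient cells, had 10.1, 23.7 and 95.2 CPM, in the order of Itgax. In the 373 WT, 444 Jα18-deficient and 53 CD1d-deficient cells without a UMI of Lyz2 or H2-Ab1, Itgax had 9.64, 26.8 and 89.7 CPM. The CD1d-deficient summed level was as high in those 53 cells as in the whole pool, but it came from few cells and is given without an interval. Without thinning, however, the share of cells with Itgax was 18.9% there against 39.3%, and that of Jα18-deficient cells 13.5% against 21.8%. These unthinned shares depend on depth, as does whether a cell shows a UMI of Lyz2 or H2-Ab1. The part of depth in the lower shares was not tested. The 7 myeloid markers other than Fcer1g were higher in cells with Itgax than without in every pool, at 128 against 83.0 CPM in WT, 29.1 against 21.2 in Jα18-deficient and 650 against 567 in CD1d-deficient cells. T cell and sort markers summed to 5120 CPM in WT cells with an Itgax UMI against 4876 in those without. They summed to 5485 against 5037 in Jα18-deficient cells. In CD1d-deficient cells they were lower with Itgax, at 5331 against 5985. The part of myeloid RNA in the remaining Itgax counts was not tested.

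Itgae, the αE chain (CD103) that pairs with β7 and holds lymphocytes to E-cadherin on epithelium, was detected in 7 of 1735 cells. It had 25, 88 and 19 UMIs in 2 WT, 3 Jα18-deficient and 2 CD1d-deficient cells, and a single cell held 84.0%, 85.2% and 94.7% of them. The share of thinned cells was 0.382%, 0.158% and 0.441%, from 2, 1 and 1 cells. No direction between pools can be read from so few cells.

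**Figure D2:**
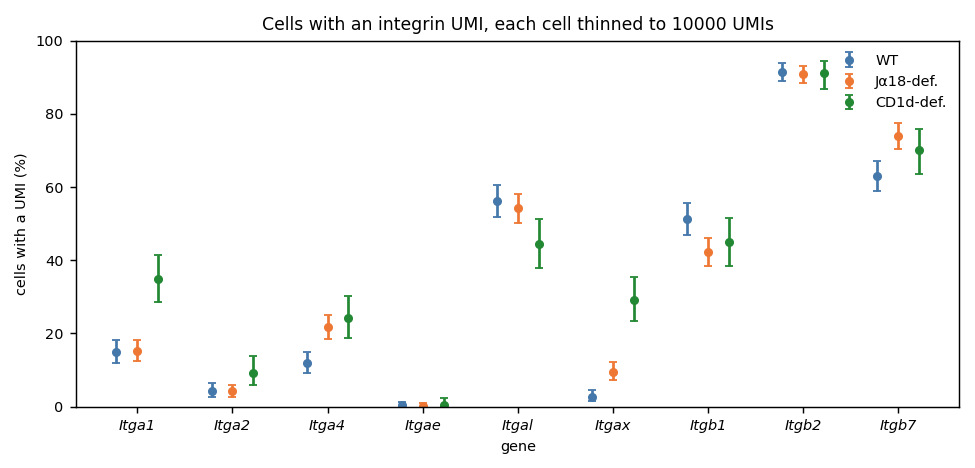
Share of cells (%, linear axis from 0) with at least 1 UMI of each integrin after every cell was thinned to 10000 UMIs, by genotype pool (points; bars, exact Clopper-Pearson 95% intervals). The Itgax intervals of all 3 pools lie apart. For Itga1 the CD1d-deficient pool stands above the other 2 and for Itga4 the WT pool below them, while Itgb2 lies between 91.0% and 91.6% in all of them and Itgae near 0.

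Counted against all genes, 2 of 9 members (Itga4 and Itgax) were at least 2-fold above WT in Jα18-deficient cells, where 14.0% of 10267 genes were. In CD1d-deficient against WT cells 4 of 8 compared members (Itga1, Itga2, Itga4 and Itgax) were at least 2-fold higher, where 12.2% of 9447 genes were, and Itgae had too few UMIs to be compared. In CD1d-deficient against Jα18-deficient cells 2 of 9 (Itga1 and Itgax) were, where 9.58% of 10042 genes were. No member was at least 2-fold lower in any pair, where 7.14%, 12.3% and 17.8% of genes were. The median log2 ratio of the members was 0.78, 0.98 and -0.01 in these 3 comparisons and that of all compared genes 0.13, 0.01 and -0.13. The first pair of comparisons shares the WT cells and the last the CD1d-deficient cells with the second, so they are not independent, and with 1 pool per genotype no test between genotypes was possible.

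The coreceptor makeup of the pools differed too, and integrin levels were therefore read within classes of cells. A Cd8a UMI was found in 97 WT, 324 Jα18-deficient and 234 CD1d-deficient cells, a Cd4 UMI in 222, 175 and 11, and an S1pr1 UMI in 37, 113 and 38. Of the cells with Cd8a, 62.9% in WT, 40.1% in Jα18-deficient and 26.9% in CD1d-deficient mice held only 1 UMI of it, and 34, 71 and 3 also held Cd4. In thinned cells Cd8a was detected in 40, 125 and 111. The makeup of the classes may therefore differ between pools, which limits comparisons of levels within them. Cells with Cd8a but neither of the other markers numbered 59, 216 and 211, those with Cd4 alone 178, 89 and 6, those with S1pr1 alone 21, 41 and 16, and those with none of the 3 numbered 317, 256 and 129.

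Differences in Itgax and Itga1 were present inside the Cd8a class and inside the class without any of the 3 markers. With Cd8a alone, Itgax had 33.2 CPM in WT, 56.6 in Jα18-deficient and 101 in CD1d-deficient cells. With none of the 3 markers it had 5.71, 16.7 and 49.8. Within each of these classes the order was that of the whole pools, and within each pool the Cd8a class had the higher level. Itga1 had 55.2, 69.8 and 167 CPM with Cd8a alone and 31.9, 52.7 and 159 with none, so the CD1d-deficient cells stood above both others in both classes. With S1pr1 alone they were lowest, at 14.2 CPM from 6 UMIs in 16 cells, against 27.1 in WT and 79.8 in Jα18-deficient cells. With Cd4 alone Itga1 had 42.8, 63.5 and 31.4 CPM, the last from 3 UMIs in 6 cells.

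Itga4 behaved differently in the classes. With Cd8a alone it had 81.1 CPM in WT, 135 in Jα18-deficient and 57.6 in CD1d-deficient cells, which put CD1d-deficient cells below WT. With none of the 3 markers it had 47.7, 72.8 and 130, and with Cd4 alone 12.02 in WT and 138 in Jα18-deficient cells. With S1pr1 alone it had 37.1, 180 and 382, the last from 16 cells. Among these 4 classes of WT cells, that with Cd4 alone was the lowest. Itgb7, the chain α4 pairs with for MAdCAM-1, was 413, 414 and 355 with Cd8a alone and 206 and 338 with Cd4 alone in WT and Jα18-deficient cells. In the Cd8a class its level in WT cells was therefore close to that of Jα18-deficient cells, unlike in the whole pools.

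**Figure D3:**
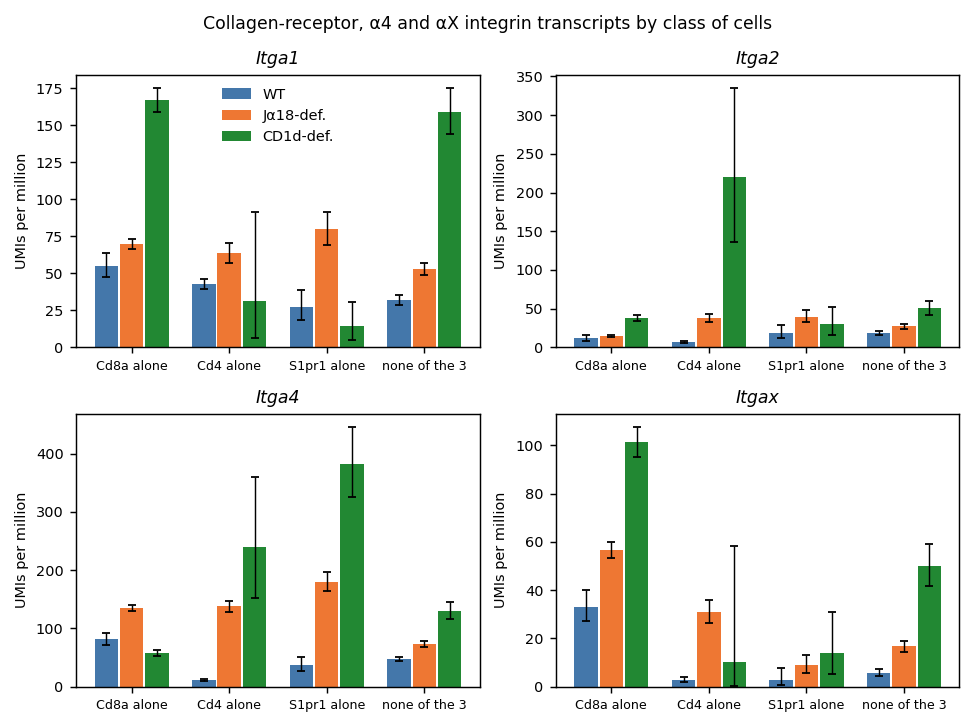
Levels of Itga1, Itga2, Itga4 and Itgax (bars from 0, CPM; error bars, exact Poisson 95% intervals) in cells with a UMI of Cd8a alone, Cd4 alone, S1pr1 alone or none of the 3, by genotype pool. The CD1d-deficient Cd4 class has only 6 cells and wide intervals. Itgax was highest with Cd8a alone in every pool.

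For the coreceptors and S1pr1, counts were summed per pool and class, and classes were compared with the quasi-likelihood test of edgeR across the 3 pools (n = 3, pool as a term, Benjamini-Hochberg over all genes tested). A difference thus had to hold across genotypes. Cells with Cd8a were deeper, with a median of 54592 UMIs against 38266.5 in WT, 70900.5 against 33257 in Jα18-deficient and 22981 against 8799 in CD1d-deficient cells. Cells with Cd4 were deeper in WT (61100.5 against 28986) and Jα18-deficient mice (72142 against 42933.5) but shallower in CD1d-deficient mice (6829 against 14576.5). Cells with S1pr1 were deeper in all 3 pools. The part of depth in these comparisons was not tested in the sums, and calls on thinned cells are given beside them.

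With Cd8a, none of the 9 members was called, where 9 of 10441 genes were (0.0862%). Itgax came nearest. It had 26.4 CPM in WT cells with a Cd8a UMI and 4.17 in those without, 42.5 and 23.2 in Jα18-deficient and 93.7 and 43.6 in CD1d-deficient cells, higher with Cd8a in 3 of 3 pools. The difference was 1.52 on the log2 scale (standard error 0.45, 0.58 to 2.47, edgeR unadjusted p = 0.0032, adjusted p = 0.53) and was the only one of the 9 with an unadjusted p under 0.05. DESeq2 called none of the members here or in the comparisons that follow. On cells thinned to 10000 UMIs, with Cd8a also read after thinning, Itgax was called as higher with Cd8a (2.38, edgeR adjusted p = 0.012, 1 of the members and 0.81% of genes called), with 47.5 against 5.59 CPM in WT, 101 against 18.3 in Jα18-deficient and 152 against 44.0 in CD1d-deficient cells. With limma on mean ln counts, in which every cell weighs the same, Itgax (adjusted p = 0.0030) and Itga1 (adjusted p = 0.0080) were called, with 1.02% of genes. Fcer1g moved with Itgax, at 2274 CPM in Itgax-detected against 294 in other WT cells, 2124 against 993 in Jα18-deficient and 3092 against 2376 in CD1d-deficient cells. Its part in the Itgax difference was not tested.

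The other members were not called by Cd8a in the sums with edgeR, which does not show that they are alike. Itga1 was higher with Cd8a in 3 of 3 pools and had 47.3 CPM with Cd8a and 36.2 without in WT, 65.7 and 62.4 in Jα18-deficient, and 177 and 135 in CD1d-deficient cells, a log2 difference of 0.29 (-0.27 to 0.84, edgeR adjusted p = 0.999). Itga2 gave 6.92 and 12.6, 17.3 and 28.0, and 37.1 and 52.9, a difference of -0.69 (-1.66 to 0.28). Itga4 was higher with Cd8a in WT, at 55.5 against 29.1, and lower in Jα18-deficient, at 111 against 161, and CD1d-deficient cells, at 64.5 against 170, so that the pools differed in sign around -0.35 (-1.08 to 0.39). Itgal, Itgb1, Itgb2 and Itgb7 lay between -0.01 and 0.18, and their intervals stayed within -0.42 and 0.54. A 2-fold difference by Cd8a lay outside the intervals of these 4 genes. Itgae, from 7 cells in all, is not read by class.

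By Cd4, again none of the 9 was called, where 13 of 10236 genes were (0.127%, with 0.0195% higher and 0.107% lower), and none had an unadjusted p under 0.05. Itgax was lower with Cd4 in 3 of 3 pools, at 6.12 against 10.6 CPM in WT, 28.7 against 38.2 in Jα18-deficient and 6.48 against 83.9 in CD1d-deficient cells, a log2 difference of -1.15 (-2.69 to 0.38). In thinned cells it had 1 UMI in 137 WT, 0 in 71 Jα18-deficient and 0 in 4 CD1d-deficient Cd4-detected cells, against 45, 219 and 220 UMIs in 386, 561 and 223 other cells. It was then called as lower (edgeR adjusted p = 0.019, with 0.138% of genes called). Itga1 had 41.2 CPM with Cd4 and 35.5 without in WT, 40.2 and 76.9 in Jα18-deficient, and 32.4 and 169 in CD1d-deficient cells, a difference of -0.86 (-2.03 to 0.30). Itga2 lay at -0.42 (-1.96 to 1.12) and Itga4 at -0.06 (-1.05 to 0.93). Itgal, Itgb1, Itgb2 and Itgb7 lay between -0.26 and 0.23. Itgae had 0 UMIs in the Cd4-detected cells of both deficient pools and 21 of its 25 in those of WT, so its fitted value is no fold. It was called without the WT pool (0.656% of genes called), where its 88 and 19 UMIs came from 3 and 2 cells. The CD1d-deficient class had 11 cells, and the intervals of 6 members reached past 2-fold in at least 1 direction.

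Set directly against each other, cells with Cd8a and no Cd4 and cells with Cd4 and no Cd8a gave 0 of 8 members called, where 27 of 9495 genes were (0.284%, with 0.232% higher and 0.0527% lower). Itgae was under the filter on low counts. Itgax was higher in the Cd8a class in 3 of 3 pools, by 2.28 (0.24 to 4.31, edgeR unadjusted p = 0.028, adjusted p = 1), and Itga1 in 3 of 3, by 0.92 (-0.56 to 2.39). Itga2 lay at -0.49 (-2.33 to 1.35), Itga4 at -0.31 (-1.64 to 1.02), and Itgal, Itgb1, Itgb2 and Itgb7 between -0.17 and 0.25. In thinned cells, where the 2 CD1d-deficient cells with Cd4 were too few to be summed, Itga1 (1.96, edgeR adjusted p = 0.021) and Itgax (adjusted p = 1.0e-06) were both called as higher with Cd8a, with 1.62% of genes called. The counts behind the Itgax call were 19 UMIs in 34 WT and 126 in 123 Jα18-deficient cells with Cd8a, against 1 UMI in 131 and 0 in 69 cells with Cd4. Those behind Itga1 were 35 and 144 against 55 and 11 UMIs in the same cells.

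**Figure D4:**
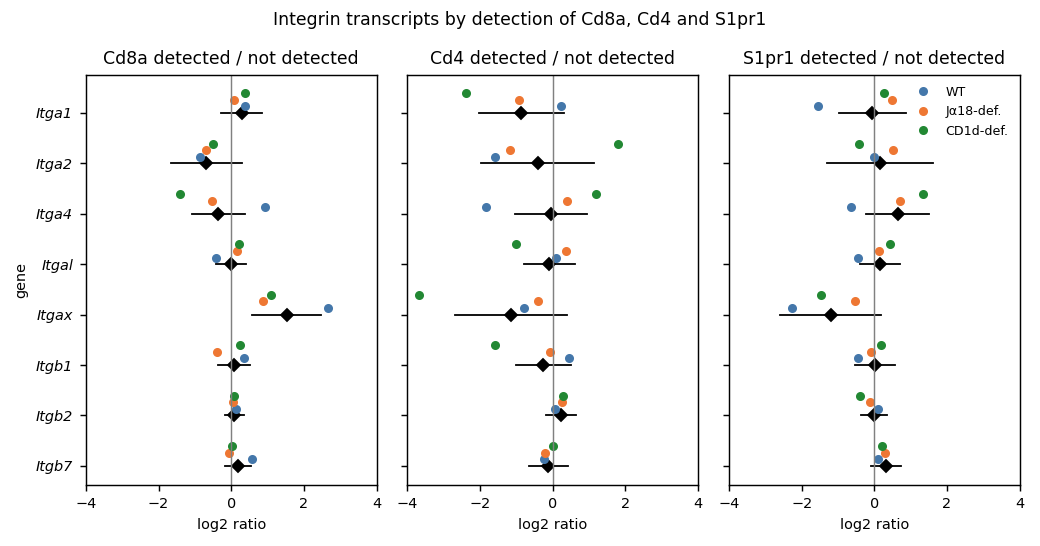
Log2 ratio of CPM in cells with a UMI of Cd8a, Cd4 or S1pr1 to that in cells without, for each pool (coloured points) and as fitted by edgeR over the 3 pools (black diamonds; bars, 95% intervals); Itgae is not drawn. Itgax lies above 0 for Cd8a in all pools and below 0 for Cd4 and S1pr1, with its CD1d-deficient point for Cd4 at -3.69.

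Detection of S1pr1 separated none of the 9 members in the test (2 of 10095 genes called, 0.0198%), and no member had an unadjusted p under 0.05. Itga4 had 184 CPM with S1pr1 and 112 without in Jα18-deficient, 187 and 73.4 in CD1d-deficient, but 22.5 and 34.9 in WT cells, a log2 difference of 0.64 (-0.23 to 1.50, edgeR adjusted p = 0.96). Both deficient pools were thus on one side and WT on the other. Itgax was lower with S1pr1 in 3 of 3 pools, at 1.83 against 8.87 in WT, 26.4 against 37.9 in Jα18-deficient and 32.7 against 89.9 in CD1d-deficient cells, a difference of -1.20 (-2.59 to 0.19). Itgb7 was higher with S1pr1 in 3 of 3 pools, at 250 against 233, 462 against 380 and 405 against 352, a difference of 0.32 (-0.09 to 0.74, edgeR adjusted p = 0.96). The counting intervals overlapped in WT, and in thinned cells the Itgb7 difference was 0.04. The collagen receptors Itga1 and Itga2 lay at -0.06 (-0.98 to 0.86) and 0.15 (-1.32 to 1.62). Itgal, Itgb1 and Itgb2 lay between -0.02 and 0.16, and Itgae had 75 UMIs with S1pr1 in Jα18-deficient cells and 0 in the other 2 pools.

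Co-detection of partner chains in the same cell was read from thinned cells. Among 253 cells with Itga1, 51.0% also had Itgb1 (44.7 to 57.3), against 45.0% of the 1129 without (42.1 to 48.0). Of 254 cells with Itga4, 73.6% had Itgb7 (67.7 to 78.9) against 68.3% of the others (65.5 to 71.0), and 44.5% had Itgb1 against 46.5%. Itgal-detected cells had Itgb2 in 91.9% against 90.5%, and Itgax-detected cells in 93.6% against 91.0%. Itgb1 was found in 46.4% of cells with Itga2 and 46.1% of those without. The intervals overlapped for each of these α and β pairs. With Itgb2 in 91.0% to 91.6% of thinned cells of each pool, its pairs had little room to differ. The 2 α chains Itga1 and Itgax, which do not pair, were found together more often, as 19.0% of cells with Itga1 had Itgax (14.3 to 24.4) against 8.15% of cells without (6.62 to 9.90). Within pools this was 11.5% against 1.12% in WT (9 of 78 and 5 of 445 cells), 11.5% against 9.14% in Jα18-deficient and 35.4% against 25.7% in CD1d-deficient cells, with separate intervals in WT alone.

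**Figure D5:**
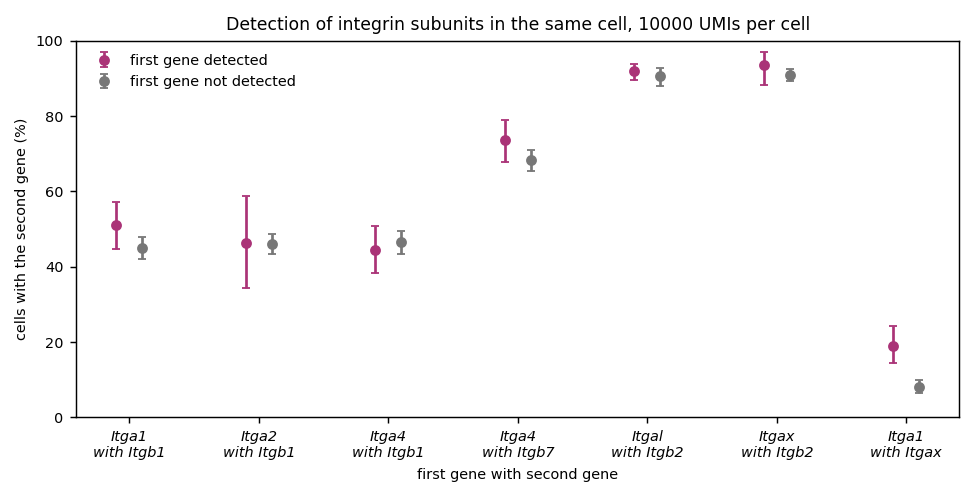
Share of cells (%, axis from 0) with the second gene of each pair, among thinned cells of all pools with the first gene (purple) and without it (grey); bars, exact Clopper-Pearson 95% intervals. The points of the α and β pairs lie close together, and those of Itga1 with Itgax stand apart at 19.0% and 8.15%.

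Genes with a pattern like that of each member were sought over 12 sums (3 pools by Cd8a alone, Cd4 alone, S1pr1 alone and none), by Pearson's r of log2 CPM among 5267 genes. The sums share pools and differ in depth and cell number, so r is a description only. Itgax was most like Tyrobp (r = 0.92), the adaptor of activating NK receptors, Efhd2 (0.91) and Crip1 (0.89). Itga4 was most like Zyx (0.91), which encodes the focal adhesion protein zyxin, and Itgb7 like Vim (0.86), the intermediate filament vimentin. Itga1 was nearest to Exosc2 (0.90), Itga2 to Dbnl (0.89), Itgal to Trmt10c (0.95), Itgb1 to Mcm5 (0.91) and Itgb2 to Cct2 (0.89). For Itgae (Cdk11b, 0.83) the pattern rests on a few cells.

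Among the 18 other integrin subunits, few were expressed. Itgb3, the β3 chain that pairs with αV, was the one with most UMIs in WT and had 41.2 CPM there, 19.6 in Jα18-deficient and 4.40 in CD1d-deficient cells. It was at least 2-fold lower in both deficient pools than in WT and in CD1d-deficient than in Jα18-deficient cells. The list of other subunits held 2 genes higher (Itga2b and Itgad) and 3 lower (Itga3, Itga6 and Itgb3) of 8 compared between Jα18-deficient and WT, where 14.0% of all genes were higher and 7.14% lower. Without thinning, Itga2b was in only 0.161% of WT and 0.966% of Jα18-deficient cells. Itga3 (2.09% and 3.59%) and Itga6 (2.73% and 3.31%) were in more Jα18-deficient than WT cells. No direction is read for Itga2b, Itga3 and Itga6. It held 0 higher and 2 lower (Itga3 and Itgb3) of 5 between CD1d-deficient and WT, where 12.2% were higher and 12.3% lower. Between CD1d-deficient and Jα18-deficient cells it held 0 higher and 3 lower (Itga2b, Itga5 and Itgb3) of 6, where 9.58% were higher and 17.8% lower. Itgam, the CD11b chain of myeloid and NK cells, named after its values were seen, had 1.26, 1.06 and 2.41 CPM.

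For the machinery that activates integrins and links them to actin, the shares past 2-fold were near or under those of all genes. Of 32 compared genes, 5 were at least 2-fold higher (Tln2, Rasgrp2, Actn1, Flna and Cd9) and 1 lower (Vcl) in Jα18-deficient cells when set against WT, where 21.2% of all genes passed in either direction. In CD1d-deficient against WT cells 2 of 31 were higher (Rasgrp2 and Zyx) and 1 lower (Cd81), where 24.5% of all genes passed. Rasgrp2, the exchange factor that loads Rap1 before integrins open, had 27.9 CPM in WT, 59.8 in Jα18-deficient and 61.2 in CD1d-deficient cells. The talin gene Tln1, under 2-fold and named for its role after its values were seen, had 237, 367 and 350. Of the ligands, E-cadherin (Cdh1), the one of αEβ7, was among the 2 of 4 compared ligands at least 2-fold higher in each deficient pool than in WT, with 0.117, 1.92 and 8.05 CPM. Its 4, 116 and 117 UMIs came from only 0.482%, 2.21% and 2.33% of cells, so no direction is read for it. Of residency and egress genes, 1 of 10 compared was at least 2-fold higher (Ccr7) and 0 lower in CD1d-deficient cells relative to WT, and 0 of 12 were higher and 1 lower (S1pr5) in CD1d-deficient relative to Jα18-deficient cells. In the 3 comparisons by marker detection and the direct comparison of Cd8a with Cd4, 0 genes of these 4 lists were called by edgeR. At an unadjusted p under 0.05, at most 1 gene of any list separated in the comparisons by Cd8a, by Cd4 and of Cd8a with Cd4.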

How the data were processed

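The study profiled single cells of liver sorted as NK1.1+CD3e+, picked manually, and read out by RNA-seq that tags each molecule (UMIs). Per the submitters' processing notes, Cutadapt 1.15, TopHat2 2.0.12 and HTSeq 0.10.0 were used with mouse build mm9. The strand setting of the counting was not given in the sources used here. The authors deposited 1 matrix of UMI counts, 24447 genes by 1735 cells, not normalized. Although the methods state a range of 10000 to 600000 transcripts, 353 cells held fewer (lowest 789, highest 598221). Doublets were not called, since single cells had been picked manually. The labels list 24 libraries, 8 per genotype, that cells could not be tied to.

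Integrin genes were matched by symbol. The members and gene lists were chosen with earlier results of these data known. Levels are counts per 1000000 UMIs of the pool sum (CPM) with exact Poisson 95% intervals. Between genotypes, genes reaching 100 UMIs over both pools were compared by a 2-fold difference, without a test. Shares of cells were taken after thinning each cell to 10000 UMIs (seed 1) with Clopper-Pearson intervals, and a count of 0 allows up to 3 counts. Classes by marker detection were summed per pool, and classes of at least 3 cells were tested with edgeR 4.0.16 (R 4.3.3, TMM, filterByExpr, quasi-likelihood, pool as a term, adjusted p under 0.05 by Benjamini-Hochberg over all genes). The 3 genotype pools are the replicates. With pool as a term, p-values weigh the class difference against how it varied between pools, not against the spread between mice or libraries. DESeq2 1.42.0, limma 3.58.1 and other filters, cells, detection rules and scalings were alternatives. The code was tested on simulated data. Of 100 genes changed 2-fold there, edgeR called 12 by Cd8a, 3 by Cd4, 10 by S1pr1 and 0 for Cd8a against Cd4. Of 100 changed 4-fold it called 52, 27, 32 and 8. A member that was not called may therefore still differ. All 9 members entered every comparison, and those that were not called are given by their range where many. Some genes of the other lists are not reported here. Of the lists, up to 5 genes past the threshold were named per list and comparison, and likeness named up to 3 genes per member with a mean of at least 20 CPM, with a prior count of 2. Figures were drawn with matplotlib 3.10.9.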

Additional observations from a re-analysis of the deposited data

Results flagged for a closer look

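Of the 4 values singled out, all concern the Cd4 split, where members moved in opposite directions in different genotypes. The difference between genotypes was not tested, since each had 1 pool. Itga2 was higher in cells with a Cd4 UMI in CD1d-deficient mice (log2 ratio 1.79) and lower in WT mice (-1.60). Itga4 was likewise higher in CD1d-deficient (1.18) and lower in WT cells (-1.84). The CD1d-deficient Cd4 class had 11 cells with a median of 6829 UMIs. In its 6 cells with Cd4 alone, the 21 UMIs of Itga2 came from 1 cell and the 23 UMIs of Itga4 from 1 cell.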

How the results depend on the processing

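No paired analysis was possible because cells carry no library or replicate number, so the replicate block was not run. Cells without Lyz2 and H2-Ab1, and sums without the top cell of each gene, were alternatives chosen after seeing the data. With Cd8a, 0 members were called by edgeR, 2 by limma and 1 in thinned cells. With Cd4, 1 was called in thinned cells, and leaving out a pool gave 0 to 1, the 1 being Itgae (-8.35, adjusted p = 0.014, with 0 UMIs on the Cd4 side, so no fold) without the WT pool. In the direct comparison of Cd8a with Cd4, 2 were called in thinned cells. DESeq2 called 0 members in each of the 4 comparisons. Between CD1d-deficient and Jα18-deficient cells, 2 members past 2-fold became 1 in cells without Lyz2 and H2-Ab1 (Itgax) and 1 without top cells (Itga1). In cells without Lyz2 and H2-Ab1, 33.5% of 7489 genes passed 2-fold either way there, against 27.3% with all cells. CD1d-deficient against WT kept the number 4 in cells without Lyz2 and H2-Ab1, with Itgb7 (1.04) in place of Itga2. Only 53 CD1d-deficient cells were left there, and 33.1% of 7135 genes passed 2-fold either way, against 24.5% with all cells. TMM scaling moved the median of all genes between Jα18-deficient and WT from 0.13 to 0.02.

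In the comparisons by marker detection, signs turned for the log2 differences given here, none of them called by edgeR with all 3 pools. With Cd8a, Itga2 turned to 0.66 in thinned cells, and Itga4 to 0.0239 (limma), 0.32 (thinned), 0.16 (at least 2 UMIs) and 0.20 (marker alone), with -1.002 to 0.20 on leaving out a pool. With Cd4, Itga2 turned to 0.0107 (limma), 0.43 (no pool term) and 0.34 (marker alone), with -1.32 to 0.26 on leaving out a pool, Itga4 to 0.0444 (limma) and 0.41 (no pool term), with -0.64 to 0.76, and Itgae ranged from -8.35 to 1.66. With S1pr1, Itga1 turned to 0.31 (no pool term), with -0.48 to 0.51 on leaving out a pool, and Itga2 ranged from -0.11 to 0.34. For Cd8a against Cd4, Itga2 turned to 2.22 (thinned), 2.63 (at least 2 UMIs) and 0.31 (cells of 10000 to 600000 UMIs), with -1.18 to 0.31, and Itga4 to 1.38, 3.03 and 0.72, with -1.55 to 0.75. Among the other values, which cover Itgal, Itgb1, Itgb2, Itgb7 and Itgae, 43 more turned sign, such as Itgb1 by Cd8a (-0.30 in thinned cells) and Itgal by Cd8a (0.15 without the WT pool). The causes were not tested.

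Over all genes, calls with Cd8a (9 higher, 0 lower) ranged from 1 to 74 and 0 to 32 over the settings, with Cd4 (2 and 11) from 0 to 12 and 0 to 56, with S1pr1 (2 and 0) from 1 to 20 and 0 to 12, and for Cd8a against Cd4 (22 and 5) from 8 to 66 and 2 to 57. Depth limits shares of cells, as 160 of 387 CD1d-deficient cells were too shallow to be thinned.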

Other observations

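Values of a few genes outside the integrins, chosen after they were seen, follow. Klf2, a factor that drives S1pr1, had 14.5 CPM in WT, 51.0 in Jα18-deficient and 27.9 in CD1d-deficient cells. Ccr7, a chemokine receptor, had 1.20, 7.72 and 8.26, from 0.321%, 3.86% and 2.33% of cells. Rgs1, which dampens chemokine receptor signals, had 322, 134 and 239. Among adhesion linkers, Zyx had 121, 241 and 254 and Flna, the actin crosslinker filamin that binds β tails, 26.1, 77.8 and 38.0. With 1 pool per genotype these values carry no test.

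Over all thinned cells, Itga4 was found in 24.5% of cells with Itga1 (19.3 to 30.3) against 17.0% of those without (14.9 to 19.3). Itgax was found in 16.5% of cells with Itga4 (12.2 to 21.7) against 8.69% of those without (7.11 to 10.5). These shares pool cells of 3 genotypes that differ in both genes, and within each pool the intervals of both pairs overlapped. For Itga4 in cells with and without Itga1 they were 10.2 to 28.3 and 8.06 to 14.0 in WT, 19.4 to 38.2 and 17.2 to 24.2 in Jα18-deficient, and 17.3 to 37.7 and 16.5 to 30.6 in CD1d-deficient cells.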
